A study of Mus musculus with 2 samples.

Results

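Gamma delta (γδ) T cells were taken from the single-cell libraries of lung leukocytes as cells with a T cell receptor delta chain and no sign of another lymphocyte. A cell was kept if it held 2 or more unique molecular identifiers (UMIs, each standing for 1 captured transcript) summed over the CD3 genes Cd3e, Cd3d and Cd3g, and 1 or more UMIs of Trdc, the delta chain constant gene. It also had to hold 0 UMIs of Cd8a and Cd8b1, of Foxp3, and of the B cell genes Cd79a and Ms4a1. This gave 95 γδ T cells of 8451 cells that passed, 56 in the library of bleomycin-injured lungs (BLM) and 39 in the library of naïve lungs. Since these genes chose the cells, their own levels are given below as a description.

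CD45+ leukocytes were sorted from lungs of wild-type C57BL/6N mice and subjected to scRNA-seq on the BD Rhapsody system. The BLM library came from lungs on day 15 after bleomycin, a drug that injures the alveoli and leads to fibrosis, given into the trachea of mice 10 to 16 weeks old. The naïve library came from lungs that received no bleomycin. Each library was 1 pool of 3 mice with no map from cell to mouse used here, so library, preparation and group cannot be told apart, and no p-value is given between them. Intervals are 95% intervals that cover counting error only.

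γδ T cells are a small T cell lineage whose receptor is built from gamma and delta chains in place of alpha and beta chains. In mice many of them leave the thymus already committed to a programme. Type 17 cells settle in barrier tissues such as the lung and make IL-17A and IL-17F, which draw neutrophils, while type 1 cells resemble cytotoxic cells and make interferon gamma, granzymes and chemokines. Type 17 cells have been linked to both tissue repair and fibrosis.

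The gamma chain constant genes sit together on chromosome 13 and are close copies of each other, which matters for how their UMIs are read. The first 120 bases of the first exon of 3 of them are shown, 5′ to 3′ on the strand of each gene, from GENCODE vM21 transcripts on GRCm38, with capitals at the bases that differ from Tcrg-C1. The stretches lie at chr13:19214103-19214222 (plus strand) for Tcrg-C1, chr13:19307432-19307551 (minus strand) for Tcrg-C2 and chr13:19344558-19344677 (plus strand) for Tcrg-C4.
Tcrg-C1: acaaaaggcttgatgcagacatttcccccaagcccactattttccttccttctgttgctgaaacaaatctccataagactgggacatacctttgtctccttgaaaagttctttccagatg
Tcrg-C2: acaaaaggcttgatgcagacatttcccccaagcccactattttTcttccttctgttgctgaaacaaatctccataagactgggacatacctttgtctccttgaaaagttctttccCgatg
Tcrg-C4: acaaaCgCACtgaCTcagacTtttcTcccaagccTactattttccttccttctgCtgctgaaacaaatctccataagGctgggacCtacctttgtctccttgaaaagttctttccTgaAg
Over the whole exon of 330 bases Tcrg-C2 was 97.3% identical to Tcrg-C1, with 9 differences, and Tcrg-C4 was 82.1% identical, with 59 differences. Of the 865 stretches of 60 bases in the Tcrg-C1 transcript, 103 (11.9%) also occurred in Tcrg-C2, 152 (17.6%) in Tcrg-C3 and 0 in Tcrg-C4. UMIs of Tcrg-C1, Tcrg-C2 and Tcrg-C3 can therefore be uncertain between these copies, whereas those of Tcrg-C4 were read from a sequence that shares no such stretch with Tcrg-C1.

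Il17a and Il17f, the cytokine genes of the type 17 programme, are neighbours on chromosome 1, and they are shown because the comparison of the libraries bears on Il17a. The 250 bases before a transcript start of each gene are shown from RefSeq (GRCm38.p6), with a match to AGGTCA in capitals. They lie at chr1:20730655-20730904 (plus strand) for Il17a and chr1:20784271-20784520 (minus strand) for Il17f. The Il17f stretch lies inside the longer GENCODE vM21 model of that gene, chr1:20777146-20790617. AGGTCA is a half-site of nuclear receptors, and it was searched on both strands, so that the Il17a match reads TGACCT.
Il17a: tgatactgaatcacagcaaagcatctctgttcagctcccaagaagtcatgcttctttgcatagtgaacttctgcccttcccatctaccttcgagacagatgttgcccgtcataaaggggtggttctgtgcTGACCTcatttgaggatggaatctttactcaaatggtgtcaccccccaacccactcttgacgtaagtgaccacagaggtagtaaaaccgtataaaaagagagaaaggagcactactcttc
Il17f: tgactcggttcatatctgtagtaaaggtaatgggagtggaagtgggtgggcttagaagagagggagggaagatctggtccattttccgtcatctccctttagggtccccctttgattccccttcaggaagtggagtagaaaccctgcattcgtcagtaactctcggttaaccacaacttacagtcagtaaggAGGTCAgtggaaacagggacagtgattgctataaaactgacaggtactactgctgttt
The match began 120 bases before the RefSeq start of Il17a, on the other strand, and 58 bases before the RefSeq start of Il17f. Such a match was found in 14.0% of 32851 promoters of this length. Counted by gene, at least 1 promoter held it in 15.8% of 27025 genes, in 5 of the 8 type 17 core genes (12 promoters) that were in the table (Il17a, Il17f, Il23r, Ccr6 and 5830411N06Rik) and 0 of 8 type 1 core genes. A short match of this kind is a description of the letters and not a binding site.

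Markers of the lineage that the selection did not use were seen in a part of the cells. Trdc, which chose the cells and so is no support for the label, reached 1738 CPM (counts per 1000000 UMIs, summed over the cells) in BLM and 1571 CPM in naïve γδ T cells, with 1 to 17 UMIs per cell. Tcrg-C1, a gamma chain constant gene that the selection did not use, was seen in 30 of 56 BLM cells (53.6%) and 22 of 39 naïve cells (56.4%). A UMI of any gamma chain constant gene was held by 42 BLM and 29 naïve cells. In B cells, which should lack it and serve as the level of free RNA, it was seen in 0 of 632 and 4 of 875 (0.457%), at median depths of 1785 and 2060 UMIs against 2278 and 2613 in γδ T cells. Cd163l1 (also called Scart1), a scavenger receptor of type 17 γδ T cells, was seen in 27 of 56 BLM (48.2%) and 11 of 39 naïve cells (28.2%), against 2 and 4 B cells. Il17a was seen in 18 BLM cells and 2 naïve cells. The γδ T cells held 158771 UMIs in BLM and 105637 in naïve, each cell between 1047 and 19229 UMIs, and no γδ barcode was among the 22 barcodes that both libraries shared.

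The edges of the selection were less clean than its centre. Among the BLM γδ T cells, 13 held a single Trdc UMI, of which 2 had a Tcrg-C1 UMI and 5 had a UMI of Trac, the alpha chain constant gene, whereas 28 of the 43 cells with 2 or more Trdc UMIs had Tcrg-C1 (65.1%) and 7 had Trac. Of the 11 naïve cells with a single Trdc UMI, 6 had Tcrg-C1 and 1 had Trac. Just outside, 4 BLM and 9 naïve cells had Trdc but a single CD3 UMI, and 2 and 4 of them had Tcrg-C1. A further 44 BLM and 58 naïve cells had Trdc with 0 CD3 UMIs, and 16 and 26 of those held Ncr1, a receptor of natural killer (NK) cells. Natural killer cells carried Trdc at 124 CPM in BLM (23 of 99 cells) and 84.6 CPM in naïve (34 of 204 cells), so Trdc alone did not mark the lineage.

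T cells were defined by the CD3 genes alone, without Cd79a and Ms4a1, and numbered 709 in BLM and 545 in naïve. γδ T cells made up 7.90% of them in BLM (95% Clopper-Pearson interval 6.02 to 10.1%) and 7.16% in naïve (5.14 to 9.65%), so the shares overlapped. With every cell thinned to 1000 UMIs the shares were 7.48% and 6.61%. As a share of all passing cells γδ T cells were 1.24% and 0.994%.

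To find what set γδ T cells apart, they were compared with CD4 and with CD8 αβ T cells of the same library, which gave 4 comparisons. The gamma chain genes Tcrg-C1, Tcrg-C2 and Tcrg-C4 and several type 17 genes such as Cd163l1 and Blk were higher in γδ T cells, and the alpha chain gene Trac was lower. A gene was ranked if the cells compared held at least 20 of its UMIs and at least 10% of the cells on its higher side had one, and it was called with a difference of 2-fold or more in the same direction in all 4. Since a gene can pass this filter through the side where it is high, counts of called list members are partly set by the filter here and in all comparisons. Of 3005 ranked genes 36 were higher (1.2%) and 16 lower (0.532%).

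Among the receptor genes, Tcrg-C1 was at 668 and 682 CPM in BLM and naïve γδ T cells and at most 23.8 CPM in the αβ T cells. Tcrg-C2 was at 246 and 322 CPM and Tcrg-C4 at 151 and 284 CPM, and both stayed below 12 CPM in αβ T cells. Trac ranked first among the lower genes, at 176 and 104 CPM against 1019 and 850 CPM in CD4 T cells. It was nevertheless seen in 12 of 56 BLM and 6 of 39 naïve γδ T cells (21.4% and 15.4%), above the 2.69% and 5.03% of B cells. Trbc1, a beta chain constant gene, differed by less than 2-fold in all 4 comparisons, from −0.51 to −0.06 on the log2 scale, and was also present in NK cells at 530 and 299 CPM. At the 2-fold limit Trbc1 was thus not a mark of αβ T cells in these libraries, while Trac was.

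Of the type 17 list, 8 of 20 genes were ranked in all 4 comparisons and 5 were higher (Cd163l1, Blk, Tmem176a, Tmem176b and Serpinb1a), beside 1.2% over all ranked genes. None was lower, and the median was 2.71 on the log2 scale beside 0.00 over all ranked genes. Blk, a Src family kinase known from B cells and from IL-17-producing γδ T cells, was at 416 and 312 CPM, close to the 274 and 294 CPM of B cells and above the 0 and 3.80 CPM of CD4 T cells. Tmem176b, a membrane protein tied to the type 17 programme, was at 372 and 341 CPM against 106 and 91.1 CPM in CD4 T cells. The other genes highest above αβ T cells were Spry2, an inhibitor of growth factor signalling, Mmp25, a membrane-bound metalloproteinase, F2r, the thrombin receptor, and Smox, which oxidises spermine. Spry2, at 233 and 199 CPM, was higher still in NK cells, at 744 and 830 CPM.

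Of the list of tissue retention, egress and homing 14 genes were ranked in all 4 comparisons, 2 were higher and 1 lower, with a median of −0.32, beside 1.2% higher and 0.532% lower over all ranked genes. The chemokine receptors Ccr2 and Cxcr6 were higher in γδ T cells in all 4 comparisons, by 1.35 to 3.58 and 1.23 to 3.99 on the log2 scale. Lef1, a transcription factor of naive αβ T cells, stood between −1.33 and −1.89. Of 12 ranked cytokine receptor genes 1 was higher, Il2ra, the high-affinity IL-2 receptor chain, by at least 1.66, with a list median of 0.28. Of 8 ranked costimulation genes 1 was higher, the inhibitory receptor gene Pdcd1, by at least 1.02, with a list median of −0.11. Igfbp4, Ms4a6b, Rflnb and Tubb2a were lower in all 4. Dusp10, Ms4a4b, Rpl12 and Gm20186 were among the 10 lowest genes but fell short of 2-fold in at least 1 comparison.

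**Figure D1:**
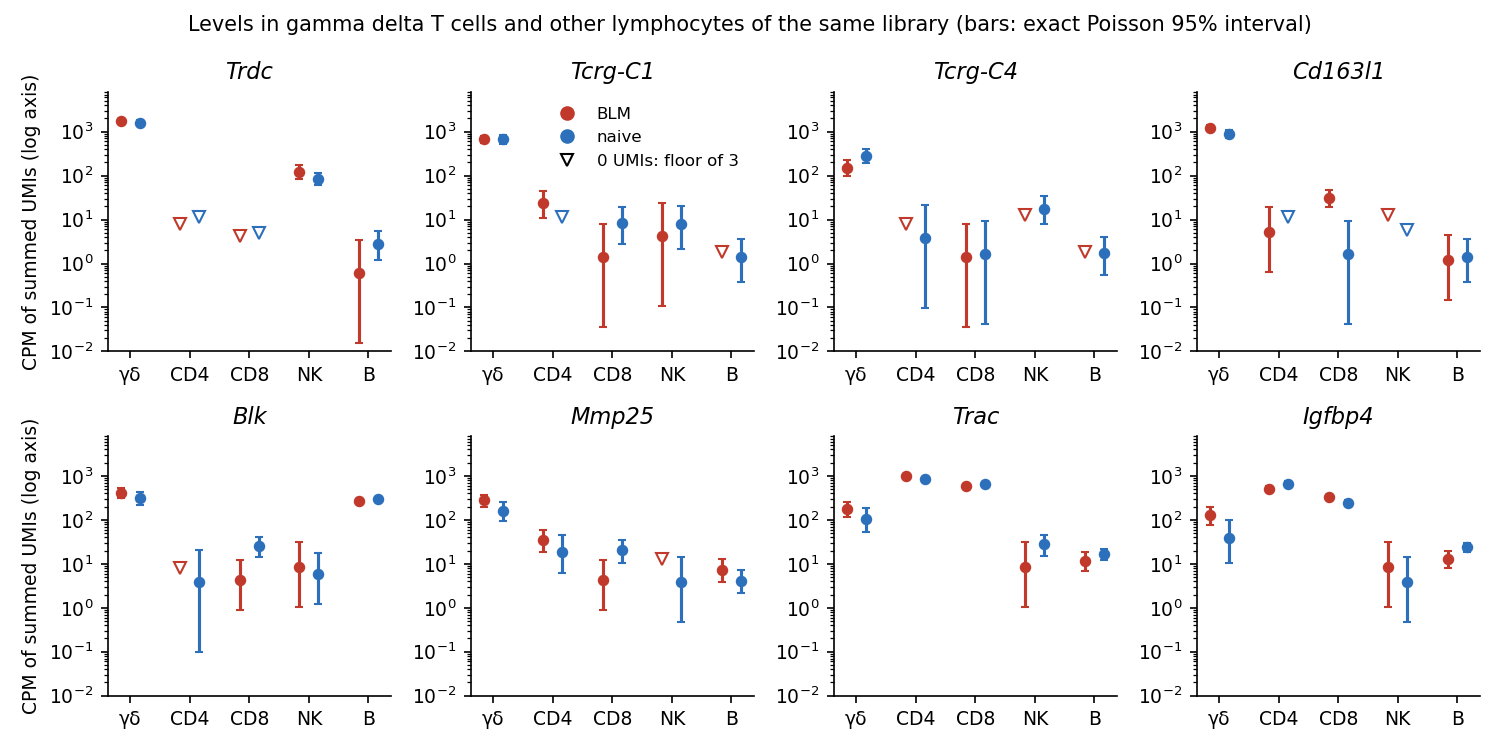
CPM of summed UMIs on a log axis for 8 genes in γδ, CD4, CD8, NK and B cells of the BLM (red) and naïve (blue) libraries, with exact Poisson 95% intervals, and open triangles at the floor of 3 UMIs where 0 were counted. Tcrg-C1, Cd163l1 and Mmp25 stand above all other lymphocytes shown, Blk is shared with B cells, and Trac and Igfbp4 are lower than in CD4 and CD8 T cells.

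γδ T cells fell into a type 17 and a type 1 range, which are ranges of a summed score and not cell types. UMIs were summed over 10 type 17 core genes (among them Il17a, Il17f, Il23r, Il1r1, Ccr6, Cd163l1, 5830411N06Rik, Blk and Sox13) and 10 type 1 core genes (Nkg7, Ccl5, Klrd1, Klrc1, Klrc2, Klrk1, Klrb1c, Tbx21, Eomes and Ly6c2), and a cell was put on the side of the larger sum if that sum was 2 or more. The type 17 side held 26 of 56 BLM cells (46.4%, 33.0 to 60.3%) and 17 of 39 naïve cells (43.6%, 27.8 to 60.4%). The type 1 side held 23 (41.1%, 28.1 to 55.0%) and 15 (38.5%, 23.4 to 55.4%), and 7 cells of each library were on neither side. Over both libraries Trac was seen in 8 of the 14 cells on neither side. It was seen in 6 of 43 type 17 cells and 4 of 38 type 1 cells. Tcrg-C1 was seen in 4 of the 14, in 37 of 43 and in 11 of 38. The γδ label is thus less certain for the cells on neither side. The shares of the sides overlapped between libraries, and after thinning to 1000 UMIs the type 17 side was 45.1% and 38.5%.

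The sides were well separated per cell. Cells on the type 17 side held a median of 14 (BLM) and 11 (naïve) type 17 UMIs and a median of 0 type 1 UMIs. Cells on the type 1 side held a median of 18 and 25 type 1 UMIs and a median of 0 type 17 UMIs. Only 3 BLM and 2 naïve cells held 2 or more UMIs of both lists, 4 cells of each library lay near the limit, and 5 of each held no UMI of either list. The type 17 sum was not specific to γδ T cells. Its limit was passed by 25.3% (BLM) and 27.9% (naïve) of B cells, which hold Blk and Ccr6, by 7.87% and 1.06% of CD4 T cells and by 1.36% and 1.09% of CD8 T cells. The type 1 limit was passed by 79.1% and 63.9% of CD8 T cells and by all NK cells.

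**Figure D2:**
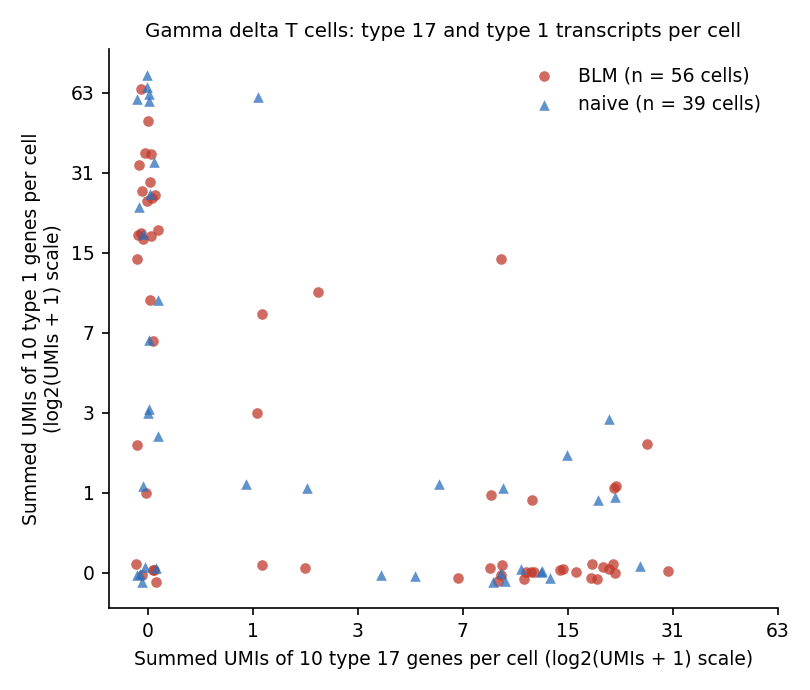
Each point is 1 γδ T cell, BLM as red circles (56 cells) and naïve as blue triangles (39 cells), with summed UMIs of the 10 type 17 genes on the x axis and of the 10 type 1 genes on the y axis, both on a log2(UMIs + 1) scale with a small jitter. Cells lie along the axes, with 3 BLM and 2 naïve cells holding 2 or more UMIs of both lists.

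Genes outside the 10-gene core sums were then compared between the sides, with the libraries summed (43 and 38 cells). Of 2158 ranked genes 262 were 2-fold or more higher on the type 17 side (12.1%) and 249 lower (11.5%). These counts include the 4 cells rich in myeloid or neutrophil RNA that are described below. Of these, 2 BLM cells lay on the type 1 side, and 1 BLM and 1 naïve cell on the type 17 side. The deepest of them held 22.5% of the UMIs of the BLM type 1 side, so the counts partly reflect it. Mmp25 held 59 UMIs in 27 type 17 cells and 1 UMI on the type 1 side, a log2 ratio of 6.13 [3.59, 11.45]. Trdv4, the delta variable segment of the innate-like type 17 cells that seed tissues early in life, held 55 UMIs in 22 cells against 1 UMI (6.02 [3.49, 11.35]). Serpinb1a (4.53), a protease inhibitor, Tmem176a (4.08), the aquaporin gene Aqp3 (5.10 [2.51, 10.45]), Pxdc1 (5.33 [2.76, 10.68]) and the chemokine receptor gene Cxcr6 (3.54) were also higher on the type 17 side. Ptgs2, the inducible cyclooxygenase, stood at 5.10 [2.51, 10.45], but its 29 UMIs lay in 5 cells. Further members of the wider lists were also higher, including Maf (3.33), a transcription factor of the type 17 lineage, Il2ra (3.55), Ccr2 (2.76) and the costimulatory receptor gene Icos (2.51).

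Several granule genes and Lck were higher on the type 1 side. Gzma, a granzyme, held 106 UMIs in 5 type 1 cells and 2 UMIs on the type 17 side (−5.48 [−8.55, −3.60]). Of the 106 UMIs, 53 lay in 1 BLM cell and 22 in 1 naïve cell. Both cells held 1 Trdc UMI and 0 UMIs of Tcrg-C1, Tcrg-C2, Tcrg-C4 and Trac. Another 22 lay in 1 BLM cell with 17 Trdc UMIs, which also held 10 UMIs of the type 17 core genes beside 15 of the type 1 core genes. Xcl1, a chemokine for cross-presenting dendritic cells, held 58 UMIs in 9 type 1 cells and 0 on the type 17 side, which was at least 16.3-fold lower against the floor of 3 UMIs. Prf1, which forms pores in target cells, held 25 UMIs in 11 cells against 0 and was at least 7.04-fold lower. Of the 25 UMIs, 4, 4 and 6 lay in the 3 Gzma cells described above. Lck, the kinase that starts T cell receptor signalling, was spread over many cells, with 63 UMIs in 26 of 38 type 1 cells and 1 UMI in 1 of 43 type 17 cells (−5.73 [−11.06, −3.20]). Ms4a4b (−2.91) was also lower on the type 17 side. Fn1, Irf8 and Lpl met the rule too, but 57 of the Fn1 UMIs and 151 of the Lpl UMIs lay in 1 BLM cell that also held 950 UMIs of macrophage marker genes. The list of 10 NK cell markers, which holds Gzma and Prf1, reached 20 or more UMIs in 3 BLM and 1 naïve γδ T cells, with highest sums of 105 and 48, and its part in these values was not tested.

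The gamma chain constant genes were split unevenly over the sides. Tcrg-C1 held 141 UMIs on the type 17 side and 28 on the type 1 side, a log2 ratio of 2.58 [1.98, 3.22]. Tcrg-C2 held 44 and 25 UMIs (1.06 [0.32, 1.83]), and Tcrg-C4 held 22 and 29 (−0.16 [−1.02, 0.69]). Tcrg-C4, the copy with no stretch in common with Tcrg-C1, differed between the sides by less than its counting error.

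The scavenger receptor genes Cd163l1 and 5830411N06Rik (also called Scart2) were then looked at cell by cell. They are neighbours on chromosome 7 (chr7:140218267-140231145 and chr7:140247284-140300736, both on the plus strand), 16138 bases apart, and their transcripts shared 0 stretches of 60 bases. This split was chosen after its values were seen. Over both libraries 37 γδ T cells held Cd163l1 only, 8 held 5830411N06Rik only, 1 held both and 49 held none. With 5830411N06Rik in 9 cells in all, the data are too few to say whether the genes avoid each other. Trdv4 was seen in 23 of the 37 cells with Cd163l1 only (62.2%, 56 UMIs), in 0 of the 8 cells with 5830411N06Rik only and in 1 of the 49 cells with none. Il17a was seen in 19 of the 37 cells (67 UMIs), in 0 of the 8 and in 0 of the 49. The cell with both genes held 2 UMIs of Il17a and 7 of Il17f.

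The other genes of the programme were spread over both kinds of cell. Blk was seen in 32 of 37 cells with Cd163l1 only and in 5 of 8 with 5830411N06Rik only, and Tcrg-C1 in 35 of 37 (94.6%) and 5 of 8. Serpinb1a was seen in 23 of 37 and 4 of 8, and Sox13, a type 17 transcription factor, in 12 of 37 and 4 of 8. Tcrg-C2 was seen in 20 of 37 and 6 of 8. With 8 cells, of which 7 were naïve, the second kind of cell cannot be told apart from its library for most genes.

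**Figure D3:**
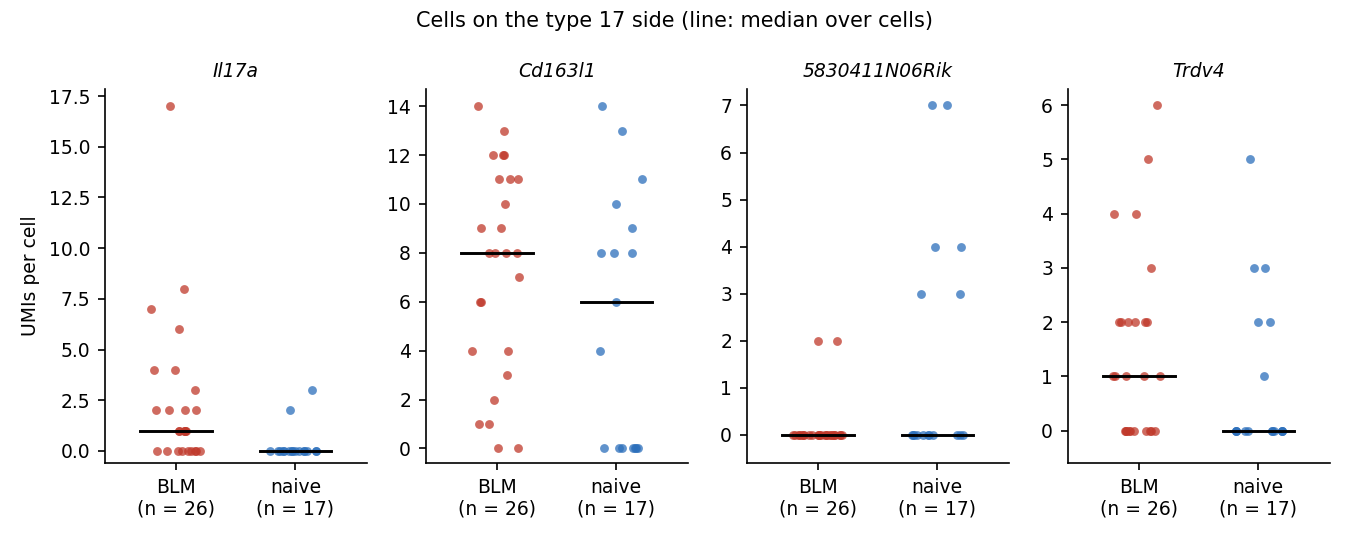
UMIs per cell of Il17a, Cd163l1, 5830411N06Rik and Trdv4 on the type 17 side, each point 1 cell with horizontal jitter, for BLM (26 cells, red) and naïve (17 cells, blue), with lines at the median over cells. Il17a was above 0 in 17 of 26 BLM cells and 2 of 17 naïve cells, and 5830411N06Rik in 2 and 6.

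The question of what bleomycin injury changed in γδ T cells was addressed by comparing the libraries. Il17a was higher in BLM, together with Rgs1, which dampens chemokine receptor signalling and marks tissue-resident T cells, and Odc1, the entry enzyme of polyamine synthesis, whereas 5830411N06Rik, Gzmb and Tcf7, a transcription factor of resting T cells, were lower. Of 2408 ranked genes 153 were 2-fold or more higher in BLM (6.35%) and 120 lower (4.98%), with a median log2 ratio of 0.03.

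Il17a was at 403 CPM in BLM γδ T cells (64 UMIs in 18 of 56 cells) and 47.3 CPM in naïve γδ T cells (5 UMIs in 2 of 39 cells), a log2 ratio of 3.09 [1.79, 4.76]. The share of cells with a UMI was 32.1% (20.3 to 46.0%) in BLM and 5.13% (0.627 to 17.3%) in naïve, and 21.6% and 3.03% after thinning to 1000 UMIs. B cells held it in 0 of 632 and 1 of 875 cells. On the type 17 side 17 of 26 BLM cells and 2 of 17 naïve cells held it, with a log2 ratio of 3.25 [1.95, 4.92]. Since Il17a is one of the core genes that place a cell on that side, this value is a description and no independent support. The highest BLM cell held 17 UMIs, and without it the ratio was 2.66. In CD4 T cells the direction was opposite (−1.90 [−3.74, −0.32]), with 5 UMIs in BLM and 13 in naïve, all 13 in 1 cell, and in CD8 T cells 2 UMIs were counted in each library.

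A single naïve cell bears on this result. It failed the selection through 1 Cd8a UMI, and held 10 Trdc, 0 Trac, 9 Il17a, 13 Il17f, 6 Cd163l1 and 4 5830411N06Rik UMIs. With the limits on CD8 and Foxp3 dropped, 58 BLM and 45 naïve cells remained, Il17a UMIs were 64 and 14, and its log2 ratio was 1.79 [0.94, 2.74]. Il17f, which held 12 UMIs in 3 BLM γδ T cells and 0 in naïve ones and was at least 2.66-fold higher against the floor, then became lower in BLM (−0.52 [−1.78, 0.73]). The direction for Il17a thus held and that for Il17f did not.

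The UMIs of the type 17 genes were traced over all cells. γδ T cells held 64 of the 109 Il17a UMIs of the BLM library (58.7%, 48.9 to 68.1%) and 5 of the 70 of the naïve library (7.14%, 2.36 to 15.9%). Most of the remaining BLM UMIs, 29 of 109, lay in other T cells without Trdc, which were in none of the CD4, CD8 and Foxp3 classes. In the naïve library 21 lay in cells of no lymphocyte class used here, 19 in such other T cells, 13 in CD4 T cells and 9 in the cell described above. Cd163l1 was centred on γδ T cells in both libraries, with 197 of 242 UMIs (81.4%) and 92 of 153 (60.1%). When T cells with a gamma chain constant UMI and no Trac UMI were added, giving 71 BLM and 49 naïve cells, γδ T cells held 64.2% and 7.14% of the Il17a UMIs. With the CD8 and Foxp3 limits dropped, which takes in the naïve cell described above, they held 58.7% and 20%. With 1 or more CD3 UMIs they held 58.7% and 10%, so the naïve share depended on the selection.

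5830411N06Rik went the other way, from 29 UMIs in 7 naïve cells (275 CPM) to 4 UMIs in 2 BLM cells (25.2 CPM), a log2 ratio of −3.45 [−5.41, −1.94]. Over the whole library its UMIs were 73 in BLM and 101 in naïve. γδ T cells held 5.48% and 28.7% of them, and CD8 T cells held 29 UMIs in BLM and 5 in naïve. Its neighbour Cd163l1 was at 1241 and 871 CPM, a log2 ratio of 0.51 [0.15, 0.88], under 2-fold. Trdv4 was at 258 and 151 CPM (0.77 [−0.10, 1.70]), with an interval that includes 0.

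**Figure D4:**
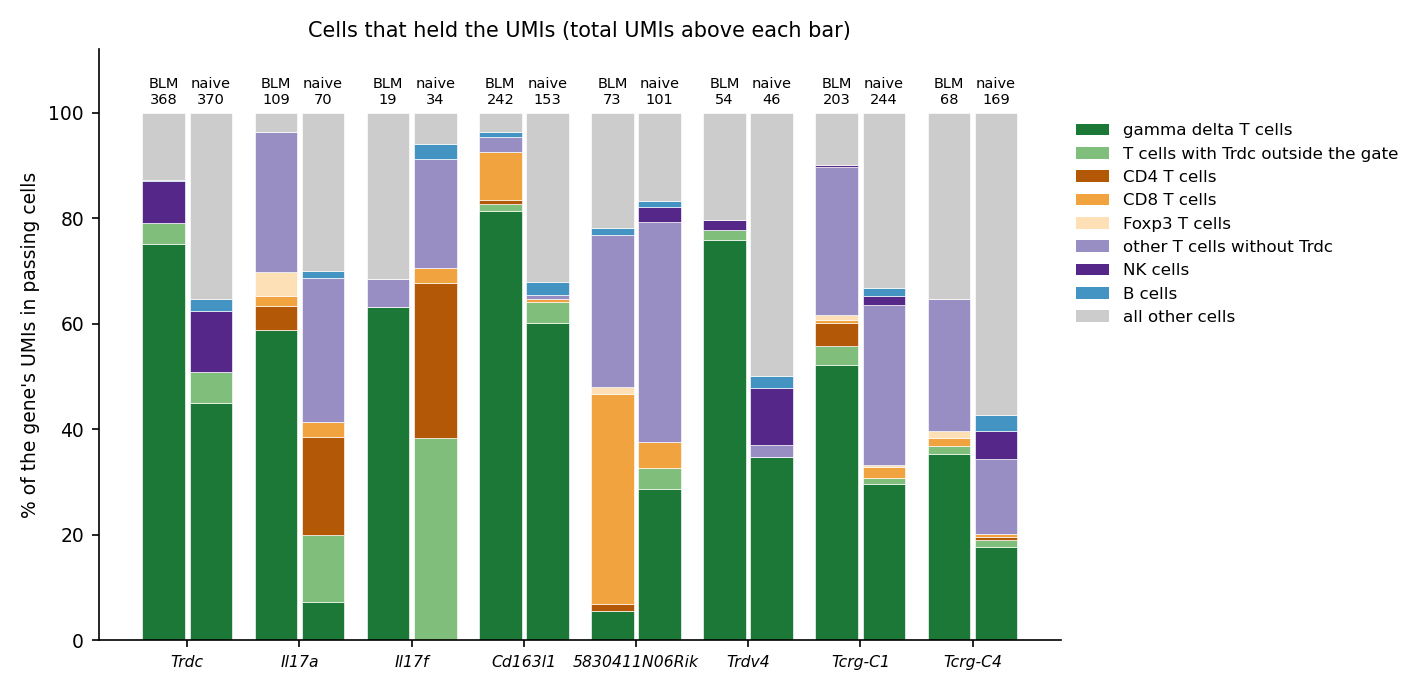
Percent of the UMIs of 8 genes that lay in each class of cell, in BLM (left bar) and naïve (right bar), with the total of UMIs in passing cells above each bar. γδ T cells (dark green) held 58.7% of the Il17a UMIs in BLM and 7.14% in naïve, and 5.48% and 28.7% of those of 5830411N06Rik.

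Rgs1 differed in many cells. It was seen in 45 of 56 BLM cells (80.4%) and 18 of 39 naïve cells (46.2%), or 64.0% and 28.0% after thinning, against 10.8% and 8.34% of B cells, with a highest value of 20 UMIs in BLM and 9 in naïve, and the log2 ratio was 1.89 [1.42, 2.38]. On the type 17 side 25 of 26 BLM and 11 of 17 naïve cells held it. It was also higher in BLM in CD4 T cells (2.78 [2.32, 3.27]) and CD8 T cells (1.51 [1.11, 1.92]), so γδ T cells shared this direction with other T cells. Odc1 was at 1663 and 521 CPM, a log2 ratio of 1.68 [1.25, 2.12], and was 1.59 [1.33, 1.86] in CD4 and 0.30 [0.08, 0.51] in CD8 T cells. It was seen in 40 of 56 BLM cells (71.4%, 57.8 to 82.7%) and 22 of 39 naïve cells (56.4%, 39.6 to 72.2%), so the intervals overlapped. B cells stood at 570 and 498 CPM. Of the 264 BLM UMIs of Odc1 in γδ T cells, 34, 32 and 32 lay in 1 cell each.

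Chemokine and granzyme genes moved in different directions over all γδ T cells. Xcl1 held 54 UMIs in 6 BLM cells, 21 and 18 of them in 2 cells, against 6 UMIs in 4 naïve cells (2.58 [1.37, 4.09]). Gzma was higher in BLM (86 and 22 UMIs, 1.38 [0.69, 2.13]), but 53 of its UMIs lay in 1 cell, without which the ratio was 0.05, and all 22 naïve UMIs lay in 1 cell. The BLM cell with 53 Gzma UMIs also held 18 of the Xcl1 UMIs, 1 Trdc UMI and 0 UMIs of Tcrg-C1, Tcrg-C2, Tcrg-C4 and Trac. The NK cell marker list summed to 189 UMIs in BLM and 71 in naïve γδ T cells, and its part in these values was not tested. Gzmb, another granzyme, was lower (5 UMIs in 3 cells and 21 UMIs in 4 cells, −2.66 [−4.42, −1.21]), with 7 of the naïve UMIs in 1 cell on the type 17 side, and stood at −1.63 [−2.94, −0.44] with the CD8 and Foxp3 limits dropped. The naïve cell with all 22 Gzma UMIs held 6 Gzmb UMIs, 1 Trdc UMI and 0 of Tcrg-C1, Tcrg-C2, Tcrg-C4 and Trac. Ccl5, a chemokine of effector T cells, was at 1612 and 3096 CPM (−0.94 [−1.18, −0.70]), just under 2-fold lower. Of 20 genes on the type 1 list 12 were ranked, 2 were higher (Xcl1 and Gzma) and 1 was lower (Gzmb), with a median of −0.29, beside 6.35% higher, 4.98% lower and a median of 0.03 over all ranked genes. With so few genes these counts are no result about the list. Without 4 cells rich in myeloid RNA, described below, 2 were higher, 2 were lower and the median was −0.10, beside 121 higher and 99 lower of 2133 ranked genes.

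Of the 20 genes on the type 17 list 13 were ranked, 2 were higher (Il17a and Aqp3) and 1 was lower (5830411N06Rik), with a median of 0.32, beside the same 6.35% and 4.98% and 0.03 over all ranked genes. Without the 4 cells 3 were higher and the median was 0.48, beside 0.05 over all ranked genes. Aqp3 held 26 UMIs in 16 BLM cells and 5 in 5 naïve cells (1.79 [0.39, 3.53]). Il23r, the IL-23 receptor, held 5 UMIs in BLM and 7 in naïve, which is too few to show a difference. Maf (−0.12 [−0.65, 0.43]), Blk (0.41 [−0.21, 1.06]) and Rora (0.17 [−0.34, 0.69]) stayed within 2-fold. In CD4 T cells, where 7.26% of 4421 ranked genes were higher in BLM and 7.03% lower, 5 of 7 ranked type 17 genes were higher, with a median of 1.41. None of these 7 was among the 10 type 17 core genes, of which 0 were ranked in CD4 T cells. The core genes summed to 32 UMIs in BLM and 29 in naïve CD4 T cells, of 377847 and 263413 UMIs in all.

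Among the 15 ranked genes of tissue retention and egress, Rgs1 and Itgae, the integrin chain that binds E-cadherin, were higher and 2 genes, one of them Tcf7, were lower, with a median of −0.31, beside 6.35% higher and 4.98% lower over all ranked genes. Itgae held 26 UMIs in 15 BLM cells and 7 in 3 naïve cells (1.31 [0.06, 2.75]). Tcf7 was at 195 and 445 CPM (−1.19 [−1.89, −0.50]). The cells on neither side held 12 of its 31 BLM UMIs and 19 of its 47 naïve UMIs. Without the 4 cells Tcf7 fell short of 2-fold, at −0.97, and 0 genes of the list were lower. Within the type 17 side 9 genes of the list were ranked, 2 were higher and 1 lower, with a median of 0.60, beside 7.26% higher and 4.06% lower of 936 ranked genes. There Itgae was higher (21 UMIs in 12 of 26 cells against 1 UMI in 1 of 17) at 3.99 [1.35, 9.36], and Klf2, which drives egress genes, was lower (4 and 16 UMIs, −2.40).

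The remaining lists moved little. Their counts stand beside 6.35% higher and 4.98% lower of 2408 ranked genes. With so few ranked genes per list they are no result about the lists. Of the cytokine receptor genes 14 were ranked and 1 was lower, Il18r1, a subunit of the IL-18 receptor, at 214 and 502 CPM (−1.23 [−1.89, −0.58]). Of the costimulation genes 8 were ranked, Tnfrsf9 was higher (1.15 [−0.22, 2.75]; 10 of its 20 BLM UMIs in 1 cell) and Cd2 lower (−1.35 [−2.64, −0.14]). Of the immediate early genes, which tissue dissociation can raise, 11 were ranked and 0 passed 2-fold, with a median of 0.00. Of the hypoxia and glycolysis genes 10 were ranked and Pgam1 was higher (1.16; 25 of its 47 BLM UMIs in 1 cell), with a median of 0.46. Of the cytokine genes 4 were ranked and Osm was higher (1.13), with 25 of its 33 BLM UMIs in 1 cell. Il22, Il4, Il5, Il10 and Il13 held 0 UMIs in γδ T cells of both libraries, which at this depth sets a limit of 3 UMIs on each. Of 8 ranked T cell receptor genes and 3 ranked cell cycle genes 0 passed 2-fold.

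Several of the genes highest in BLM by rank came from a few cells. In BLM 3 γδ T cells, and in naïve 1, held 20 or more UMIs of the macrophage or neutrophil marker lists, and they carried 17.5% and 3.99% of the γδ UMIs. One BLM cell of 19229 UMIs held 950 UMIs of the macrophage list, 0 of Tcrg-C1 and 1 of Trdc. It accounted for 312 of the 318 UMIs of Spp1, a gene of scar-associated macrophages, which was at least 70.5-fold higher in BLM against the floor, and for most of Fn1, Lpl, Ctsc, Lyz2, Ctsd and Ctss. The macrophage list had 6 ranked genes, all 6 higher, with a median of 2.05, beside 6.35% higher and a median of 0.03 over all ranked genes. Without the 4 cells 2 genes were ranked, 0 were higher and the median was −0.03. S100a8, a neutrophil gene, was lower in BLM (−2.53), with 41 of its 46 naïve UMIs in 1 cell, without which the ratio was 0.62. Of the other lists, 4 of 9 stromal and endothelial markers (Sparc, Igfbp7, Cldn5 and Sftpc) and 4 of 9 ILC2 markers (Il13, Il5, Hs3st1 and Rxrg) were at 0 in both libraries. The other 5 of each list were seen in BLM. The ILC2 list summed to 46 UMIs in BLM and 16 in naïve, with at most 11 and 5 in 1 cell. The stromal list summed to 17 and 11 UMIs, with at most 3 and 2 in 1 cell. The part of such cells in the γδ values was not tested.

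Il17a, Rgs1, Odc1 and 5830411N06Rik did not rest on these cells. Without them, in 53 BLM and 38 naïve cells, the log2 ratios were 4.02 [2.41, 6.34], 2.18 [1.70, 2.69], 1.94 [1.51, 2.40] and −3.23 [−5.20, −1.72]. The Il17a value then rested on 63 BLM and 3 naïve UMIs. Others that then ranked highest were Xcl1 (2.80), Ostc (2.69 [0.98, 5.06]), part of the oligosaccharyltransferase complex, Malt1 (3.09 [1.06, 6.22]), which relays antigen receptor signals, the calcium pump gene Atp2b4 (4.02 [1.39, 9.39]), Mapkapk3 (3.09 [1.06, 6.22]), Crip1 (1.53) and Gzma (1.60). Slc6a6, the taurine transporter gene, stood at 2.44 [0.69, 4.83] and Pgam1 fell to 0.14. The lowest were 5830411N06Rik, Ripor2 (−2.23), Bc1 (−2.26), Gzmb (−2.44), Ist1 (−2.24), Igkc (−1.87), Pim2 (−2.46), Morf4l2 (−1.68), H2-Ab1 (−2.09) and Kctd12 (−1.35). Igkc and H2-Ab1 are genes of B cells, and were also lower in BLM CD4 T cells (−2.39 and −3.77) and CD8 T cells (−1.92 and −1.69). Their part in the γδ values was not tested.

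**Figure D5:**
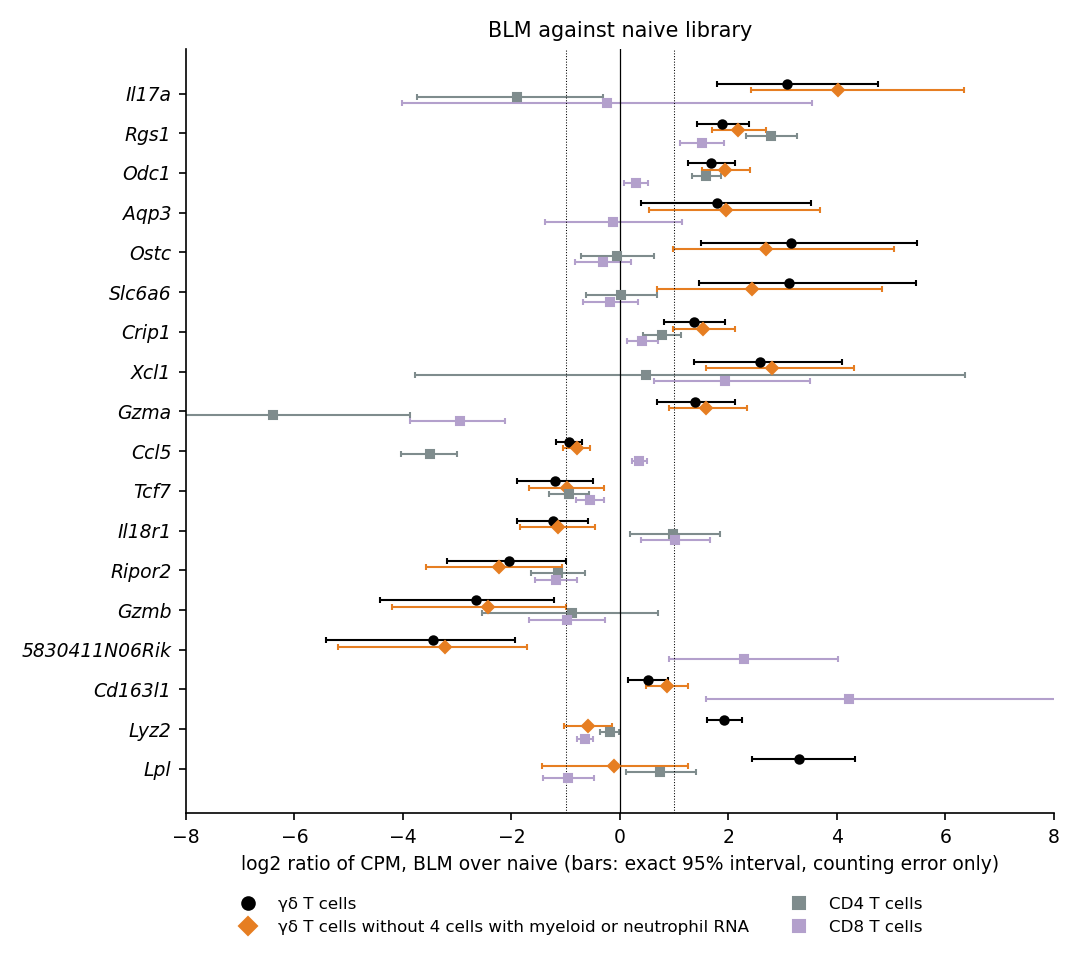
Log2 ratio of CPM, BLM over naïve, with exact 95% intervals, in γδ T cells (black), in γδ T cells without the 4 cells with macrophage or neutrophil RNA (orange), and in CD4 (grey) and CD8 (violet) T cells, with dotted lines at 2-fold and intervals cut at the frame. Il17a stands at 3.09 and 4.02 in the first 2 sets, Rgs1 is higher in all 4, and Lyz2 and Lpl lose their difference without those cells.

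On the type 17 side alone 936 genes were ranked, 68 were higher in BLM (7.26%) and 38 lower (4.06%). Hopx, a cofactor found in effector and resident T cells, held 27 UMIs in 7 of 26 BLM cells and 0 in 17 naïve cells, which was a log2 ratio of at least 2.77 against the floor, with 14 of its UMIs in 1 cell. Cxcl10, an interferon-induced chemokine, stood at 3.99 [1.35, 9.36] with 21 UMIs against 1, and 12 of the 21 lay in 1 cell. Rgs1 (2.34 [1.73, 3.01]) and Odc1 (1.84 [1.30, 2.42]) were higher here as well. Smc4, a chromosome condensation protein, was lower (6 and 24 UMIs, −2.40), as were Igkc (−2.49) and Bc1 (−2.33). Thbs1 was lower by rank, but 19 of its 20 naïve UMIs lay in 1 cell.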

How the data were processed

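Living CD45+ lung cells were profiled in 2 libraries on the BD Rhapsody system. The authors deposited UMI counts per cell and gene, not normalised, made with the BD Rhapsody WTA Analysis Pipeline 1.8 on GRCm38 with GENCODE vM19 per the file headers. The libraries passed through that pipeline on different dates, and whether counting used strand is not given in the sources used here.

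Barcodes (4714 BLM, 4062 naïve) passed if they held at least 200 genes and no more than 15% of UMIs from mitochondrial genes (4526 and 3925). A gene absent from 1 table was set to 0 there (20235 genes in both, 2397 in BLM only, 2153 in naïve only). CD4 and CD8 T cells held Cd4 or CD8 UMIs but not both, and no Trdc or Foxp3; NK cells held 0 CD3 and 2 or more Ncr1 and Klrb1c UMIs; B cells held 2 or more Cd79a and Ms4a1 UMIs and 0 CD3. UMIs were summed over cells and scaled to CPM. Log2 ratios have exact conditional intervals, levels exact Poisson intervals and shares exact Clopper-Pearson intervals. UMIs of 1 cell are not independent, so these intervals are too narrow as a measure of differences between cells or mice. A side at 0 was set to 3 UMIs. Thinning used 20 draws for sums and the hypergeometric distribution for single genes. The ratio, its interval and the 2-fold call were tested on simulated cells of the same depths with known fold changes. These cells were drawn from 1 pooled profile, without sides and without cells that hold most UMIs of a gene. The simulation therefore does not cover such differences between cells. Genes simulated with no change also passed 2-fold at these depths, so a share called is not a share changed.

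Scrublet in scanpy 1.11.5 called 8 BLM cells (0.177%) and 61 naïve cells (1.55%) as doublets. Too few for the first library, these calls were not used, and leaving out the highest 3% of scores (2 BLM and 1 naïve γδ T cells) was an alternative. Other alternatives changed the selection, the totals and the filter on low counts. SciPy 1.17.1, NumPy 2.4.6 and pandas 2.3.3 were used.

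The cells, gene lists and alternatives were chosen with earlier results of these data known. Named genes were the 10 highest and 10 lowest ranked genes between libraries and against αβ T cells and the 8 highest and lowest between sides, by the interval end nearer 0, with members of the lists. Some genes that these rules name are not reported here. The same ends without the 4 cells rich in myeloid RNA, and the 6 highest and lowest on the type 17 side, were added after the data were seen. Leaving out those cells, leaving out the cell with the most UMIs of a gene, the comparison within each side and the 3 wider selections were also added then.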

Additional observations from a re-analysis of the deposited data

Results flagged for a closer look

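Trdc was above the level of free RNA in NK cells, which lie outside the comparisons above. It stood at 124 CPM in NK cells of the BLM library (29 UMIs in 23 of 99 cells) and at 84.6 CPM in those of the naïve library (43 UMIs in 34 of 204 cells), against 0.612 and 2.76 CPM in B cells.

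Hopx gave log2 ratios of opposite sign on the sides of the γδ T cells. It was higher in BLM on the type 17 side (27 UMIs against 0, a log2 ratio of 2.77 against the floor), with 14 of the 27 in 1 cell, and lower on the type 1 side (12 UMIs in 23 cells against 14 UMIs in 15 cells, −1.24 [−2.48, −0.016]). Without 2 BLM cells rich in myeloid RNA, an alternative chosen after seeing the data, the type 1 value was −1.03 [−2.36, 0.25], an interval that includes 0. With 1 library per group this difference was not tested.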

How the results depend on the processing

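No paired analysis was possible because each group is 1 pooled library with no replicate. Over the alternatives, 39 named genes past 2-fold gave 540 log2 ratios of BLM over naïve, of which 523 kept their sign. With 2 or more Trdc UMIs (43 BLM and 28 naïve cells) the type 17 side was 60.5% of BLM γδ T cells, the naïve share of T cells was 5.14% and 29 genes were lower than in αβ T cells. With a gamma chain constant UMI required (42 and 29 cells) the BLM share was 5.92%, 85 genes were higher in BLM and 31 were lower than in αβ T cells. With 3 or more CD3 UMIs 101 genes were higher in BLM, and with at most 10% mitochondrial UMIs 10 were lower than in αβ T cells. A minimum of 5 UMIs and no minimum share of cells gave 848 genes higher in BLM gamma delta T cells and 995 lower, and 107 higher and 66 lower than in αβ T cells. A minimum of 50 UMIs gave 40, 15, 9 and 4. The cause of these shifts was not tested.

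Signs turned for Ccr6 (0.56 with 2 or more Trdc UMIs, 0.44 without Trac, 0.37 without its top cell), Igfbp4 (−2.44), Il23r (0.30) and Spp1 (−0.021) with 2 or more Trdc UMIs, Il17f (−0.52) without the CD8 and Foxp3 limits, and S100a8 (0.62) without its top cell. Lpl, log2 BLM over naive, was −0.24, −0.034, −0.80, −0.11 and −0.16, and Lyz2 −0.46, −0.56, −0.47 and −0.58, with 2 or more Trdc UMIs, a gamma chain UMI, 3 or more CD3 UMIs or without the 4 myeloid-rich cells, and for Lpl also without its top cell. Il17a ranged from 1.79 to 4.02 over all alternatives.

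With 95 cells at median depths of 2278 and 2613 UMIs, genes such as Il23r and Ccr6 were too sparse for a direction.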
